A study of Homo sapiens with 8 samples.

Results

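Propyl pyrazole triol (PPT) and diarylpropionitrile (DPN) are nonsteroidal agonists of the estrogen receptors, and the genes that both of them moved away from vehicle and estradiol alike were described here. The 4 libraries from cells given PPT (2 libraries) or DPN (2 libraries) were set against the other 4 of the 8 libraries, which came from cells given estradiol (E2, 2 libraries) or the vehicle DMSO (the control, 2 libraries). Thus 2 of the 3 compounds of the series were pooled, by a rule that uses the labels alone. The cells were of the HepG2 line, which comes from a human hepatocellular carcinoma. Every group was first starved for 16 h in phenol red-free medium with 0.1% charcoal-stripped FBS. Each compound was given at 1 µM for 48 h, so dose and time were matched. The study calls its E2 water soluble and states that the compounds were dissolved in DMSO. The study names 3 replicates per group, of which 2 were analysed here. Nothing says that the 2 libraries of a group came from separate cultures, so the p-values reflect only how far these samples vary, and that variation may be technical.

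E2 is the natural steroid estrogen. PPT is a pyrazole with phenol rings that prefers estrogen receptor α (ERα), and DPN is a nitrile with a pair of phenol rings that prefers estrogen receptor β (ERβ). Both receptors are ligand-activated transcription factors, while GPER1 is a membrane receptor that also binds estrogens. Liver cells also answer electrophilic compounds through NRF2, a transcription factor held back by KEAP1. NRF2 drives genes of glutathione synthesis, thioredoxin reduction and NADPH supply. A separate program, the unfolded protein response of the endoplasmic reticulum (ER), raises chaperones and degradation factors when protein folding in the ER is strained.

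The libraries held 25103160 to 29670814 counts over 26235 genes, and 15460 genes had enough counts to be tested. Levels are given as counts relative to library size (CPM) after TMM scaling, always in the order of the 2 libraries of a group. The 6 pairs of groups were compared with edgeR's quasi-likelihood test in 1 fit of the 8 libraries, and p-values were adjusted over all tested genes and the 6 pairs together. Log2 correlations between the 2 libraries of a group were 0.994 to 0.996, but their counts differed beyond sampling noise. ESR1, the gene of ERα, had 0 counts in all 8 libraries, which allows at most 3 counts per library. ESR2, the gene of ERβ, had 4 and 7 counts with PPT, 3 and 0 with DPN, 1 and 1 with E2 and 8 and 6 with the vehicle, and was not tested. The receptors that the 2 agonists are selective for were therefore at or near 0 in this RNA. GPER1 had 5.83 and 6.46 CPM with PPT, 10.4 and 12.3 with DPN, 22.8 and 20.8 with E2 and 16.1 and 16.2 with the vehicle. It was lower with both agonists than with E2 or the vehicle, and the difference closest to 0 was -0.51 for DPN over the vehicle (log2, standard error 0.13, adjusted p = 0.0013). The markers that define the line were present, with the 10 hepatocyte and hepatoma markers summing to 37700 to 41200 CPM with the agonists, 79600 to 83800 with E2 and 54400 to 55600 with the vehicle. Of these 10 markers, 6 were lower in all 4 pairs defined below (60%, against 6.02% of all tested genes). In bulk RNA, fewer cells of a type and less RNA per cell cannot be told apart.

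PPT and DPN together raised more genes than they lowered by the strict rule. A gene was called shared when it differed in the same direction in all 4 pairs (PPT or DPN against the vehicle or E2), each time by more than 1.5 on the log2 scale and at an adjusted p under 0.01. There were 72 shared rises, 0.466% of the tested genes, and 22 shared falls, 0.142%. Of the rises, 66 code for proteins and 6 are annotated as long noncoding RNAs. Among those 6, DNAAF4-CCPG1 and TM4SF19-DYNLT2B overlap the coding shared rises CCPG1 and TM4SF19, so their reads may not be separate. With no fold minimum and an adjusted p under 0.05 in all 4 pairs, 1279 genes were higher (8.27% of the tested genes) and 931 lower (6.02%). Below, "changed in all 4 pairs" means this wider set. The 4 pairs share libraries with each other, so their calls are not independent. The strict rule also all but fixes that agonist libraries lie apart from the others. A lack of overlap stated below for shared genes therefore describes them and is not separate support. The pairs had called 303 genes higher and 446 lower with PPT than with the vehicle, 298 and 314 for DPN against the vehicle, 458 and 1196 for PPT against E2, and 499 and 1126 for DPN against E2.

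Simply averaging the 4 agonist libraries against the other 4 gave a longer list that mixed different patterns. This pooled contrast called 268 genes higher (1.73%) and 495 lower (3.2%). Among the 268, 170 changed in all 4 pairs, 53 passed the wider test with both agonists against E2 but not against the vehicle, 32 did so against the vehicle but not against E2, and 13 did neither. Among the 495, 185 changed in all 4 pairs, 256 passed with both agonists against E2 but not against the vehicle, 25 against the vehicle but not against E2, and 29 in neither way. The strict rule held for 26.9% of the pooled rises and 4.44% of the pooled falls. The pooled contrast therefore also collects genes set apart by E2, so the calls for genes and lists described next use the 4 pairs. A pooled median given below for a gene list still includes any difference of E2 from the vehicle.

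NRF2 targets were often higher with both agonists. Of 31 tested genes on a list of NRF2 targets, 22 were higher in all 4 pairs and 0 were lower, which is 71% against 8.27% of all tested genes. The median pooled log2 difference of the list was 0.96, against -0.02 over all tested genes. In all, 6 members were shared rises by the strict rule. GCLC and GCLM encode the catalytic and modifier subunits of the enzyme that limits glutathione synthesis. GCLC (GeneID 2729, chromosome 6 from 53497341 to 53545101 of GRCh38) had 799 and 833 CPM with PPT, 943 and 978 with DPN, 197 and 216 with E2 and 197 and 189.8 with the vehicle. GCLM (GeneID 2730, chromosome 1 from 93885199 to 93909430) had 140.4 and 154 CPM with PPT, 126 and 128 with DPN, 18.8 and 18.9 with E2 and 27 and 27.3 with the vehicle. For both genes every agonist library lay above every E2 and vehicle library, and the difference closest to 0 was 1.98 for PPT over E2 (log2, standard error 0.07, adjusted p = 2.87e-19) for GCLC and 2.23 for DPN over the vehicle (log2, standard error 0.08, adjusted p = 7.72e-19) for GCLM. TXNRD1, thioredoxin reductase, had 1056 and 1008 CPM with PPT, 1034 and 1027 with DPN, 102 and 106 with E2 and 312 and 301 with the vehicle. The agonist libraries were about alike and the E2 libraries were the lowest, below the vehicle. The smallest of its differences was 1.75 for DPN over the vehicle (log2, standard error 0.06, adjusted p = 1.25e-18).

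SRXN1, which restores overoxidized peroxiredoxins, had 440.3 and 459 CPM with PPT, 388 and 395 with DPN, 39.3 and 37.3 with E2 and 93.1 and 93.9 with the vehicle. AKR1B10, an aldo-keto reductase of reactive aldehydes, had 607 and 579 CPM with PPT, 381 and 395 with DPN, 27.7 and 30.1 with E2 and 79.3 and 84.5 with the vehicle. ABCC3, an export pump for conjugates, had 137 and 147 CPM with PPT, 102 and 112 with DPN, 22.7 and 22.6 with E2 and 28.6 and 27.9 with the vehicle. The groups did not overlap for any of the 3 genes, and the smallest differences were 2.06 for DPN over the vehicle (log2, standard error 0.07, adjusted p = 1.12e-19), 2.25 for DPN over the vehicle (log2, standard error 0.07, adjusted p = 4.86e-20) and 1.92 for DPN over the vehicle (log2, standard error 0.08, adjusted p = 2.93e-17). AKR1B15, a near copy of AKR1B10 that lies 7698 bp from it, was also a shared rise, at 56.7 to 98.7 CPM with the agonists against 4.52 to 14.6 CPM in the other libraries, and reads of the pair may have been split between them. Among the members that changed without reaching the strict rule, SLC7A11, the cystine importer, had 445 and 467 CPM with PPT, 375 and 362 with DPN, 45.6 and 44.5 with E2 and 244 and 242 with the vehicle. NQO1, a quinone reductase, had 883 and 878 CPM with PPT, 796 and 753 with DPN, 197 and 216 with E2 and 443 and 452 with the vehicle. For both, E2 lay below the vehicle and the agonists above it. The 9 list members that did not change in all 4 pairs were NFE2L2 (the gene of NRF2), KEAP1, HMOX1, TKT, OSGIN1, PRDX1, GPX2, CES1 and MAFG.

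**Figure D1:**
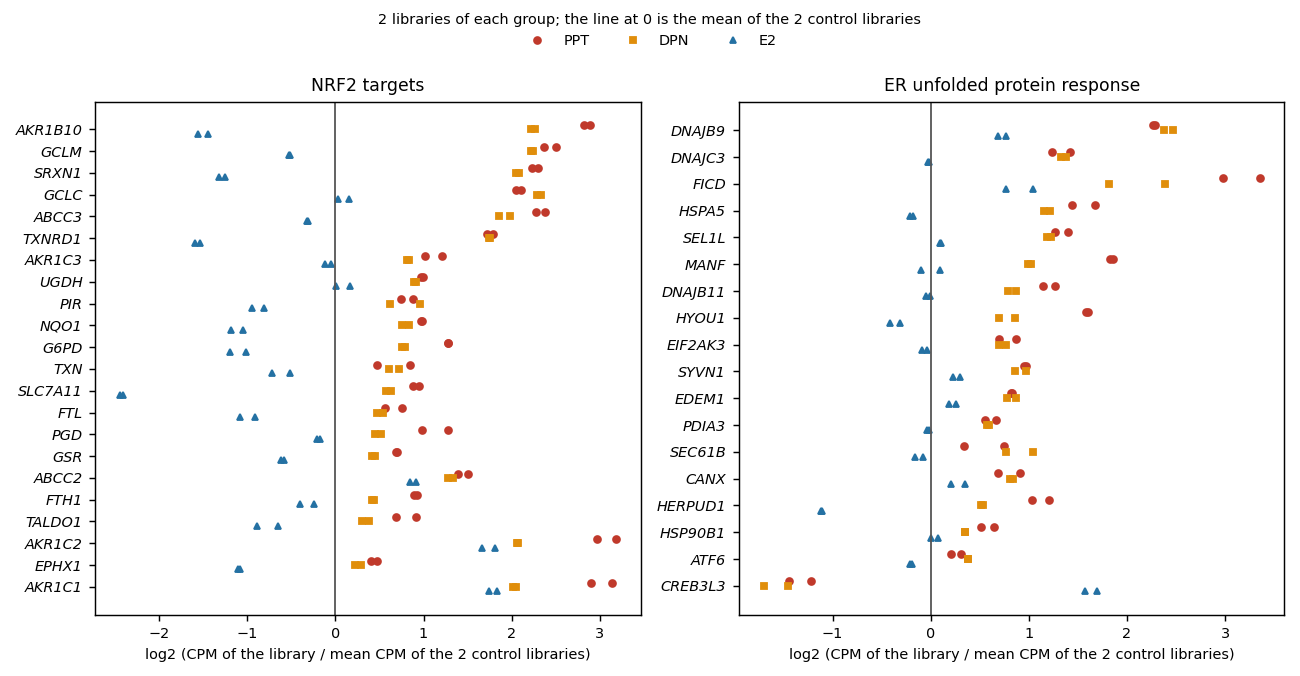
Each point is 1 library, placed by the log2 ratio of its CPM to the mean of the 2 control libraries, for the members of the NRF2 list (left) and the ER unfolded protein response list (right) that changed in all 4 pairs. The PPT and DPN points of the 22 NRF2 targets lie right of the E2 points, and most E2 points lie at or left of 0. In the right panel 17 genes are higher with both agonists and CREB3L3 is lower.

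The antioxidant response element, through which NRF2 acts, has the core TGACNNNGC. It was searched as such and as its reverse complement, and so on both strands, from 250 bases before to 50 bases after each annotated gene start, in RefSeq windows of GRCh38.p14. The core was found in 12 of 72 windows (16.7%) of the 48 shared rises that had a window, against 14.5% of the windows of tested genes and 13.3% of all 35116 windows. It was found in 0 of the 26 windows of 17 shared falls, and in 8 of 28 windows (28.6%) of the NRF2 list and 10 of 30 (33.3%) of the lysosome list. The share in the shared rises was thus close to that of all windows of this length, and a match is a description and not a site of binding. The 3 stretches shown are from shared rises with a match close to their start, 2 of them enzymes of the glutathione and thioredoxin systems and 1 a noncoding RNA. They are written on the strand of the gene with the core in capitals, at chr1:93909431-93909489 (minus strand, 34 bases before the start of GCLM), chr12:104286905-104286963 (plus strand, 102 before a start of TXNRD1) and chr5:91314423-91314481 (minus strand, 54 before the start of LUCAT1).
GCLM: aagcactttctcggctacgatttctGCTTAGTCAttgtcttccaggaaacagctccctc
TXNRD1: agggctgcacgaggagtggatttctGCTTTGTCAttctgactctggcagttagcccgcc
LUCAT1: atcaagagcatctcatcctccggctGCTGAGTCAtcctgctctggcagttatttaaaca
LUCAT1, a long noncoding RNA, had 4.32 and 4.45 CPM with PPT, 5.58 and 3.95 with DPN, 1.43 and 1.39 with E2 and 0.677 and 0.576 with the vehicle. It is a low gene, and its agonist libraries lay above all others, with 1.64 for PPT over E2 (log2, standard error 0.29, adjusted p = 2.24e-05) as the difference closest to 0. It was not called without the first DPN library.

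Genes of the ER unfolded protein response were raised almost as often. Of 25 tested members, 17 were higher in all 4 pairs (68%, against 8.27% of all tested genes). Only 1 was lower (4%, against 6.02%), and the median pooled log2 difference was 0.80. DNAJB9, an ER co-chaperone, was the list's shared rise and had 253 and 256 CPM with PPT, 291 and 273 with DPN, 89.2 and 84.4 with E2 and 50.6 and 54.3 with the vehicle. HSPA5, the main ER chaperone (BiP), had 7644 and 6505 CPM with PPT, 5554 and 5320 with DPN, 2112 and 2064 with E2 and 2447 and 2343 with the vehicle. HYOU1, its nucleotide exchange factor, had 1707 and 1690 CPM with PPT, 910.1 and 1020 with DPN, 452 and 421 with E2 and 561 and 565 with the vehicle. In all 3 genes the agonist libraries stood above the rest. In HSPA5 and HYOU1 the PPT libraries also stood above the DPN libraries. DPN minus PPT was -0.38 in HSPA5 (log2, 95% interval -0.51 to -0.25, adjusted p = 1.47e-05) and -0.82 in HYOU1 (-0.95 to -0.68, adjusted p = 2.39e-11). HERPUD1, a factor of ER-associated degradation, had 575 and 512 CPM with PPT, 358 and 361 with DPN, 116 and 115 with E2 and 246 and 254 with the vehicle. Here E2 lay below the vehicle, and the smallest difference was 0.52 for DPN over the vehicle (log2, standard error 0.07, adjusted p = 1.52e-07). PPT was above DPN in HERPUD1 too, with DPN minus PPT at -0.60 (log2, adjusted p = 1.33e-08). CREB3L3, a liver transcription factor that is cleaved at the ER stress step, was the list's fall. XBP1, ERN1, SDF2L1, PDIA4, PDIA6, CALR and CRELD2 did not change in all 4 pairs.

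Outside that list, 4 shared rises picked after their values were seen are described next. DNAJC10, a disulfide reductase of the ER, had 672 and 702 CPM with PPT, 676 and 661 with DPN, 222 and 244 with E2 and 216 and 204 with the vehicle. CCPG1, a receptor for the autophagy of ER, had 254 and 282 CPM with PPT, 254 and 249.8 with DPN, 39.8 and 39.9 with E2 and 71.3 and 66.3 with the vehicle. AGR2, a protein disulfide isomerase of secretory cells, had 64.3 and 59.3 CPM with PPT, 48 and 42 with DPN, 4.88 and 3.83 with E2 and 9.55 and 7.62 with the vehicle. No agonist library overlapped with the other groups in these genes, and the differences closest to 0 were 1.52 for DPN over E2 (log2, standard error 0.07, adjusted p = 9.28e-17), 1.87 for DPN over the vehicle (log2, standard error 0.07, adjusted p = 5.73e-18) and 2.39 for DPN over the vehicle (log2, standard error 0.12, adjusted p = 2.11e-15). DNAJC10 sat at the edge of the rule and was lost with upper-quartile scaling, with a filter of 1 CPM in 2 libraries and without the first E2 library. CCPG1 overlaps DNAAF4-CCPG1, another shared rise, so their reads cannot be counted as separate. ERO1B, an oxidase that supplies disulfide bonds, had 48.1 and 53.1 CPM with PPT, 47.3 and 45.3 with DPN, 15.9 and 12.8 with E2 and 17.2 and 13.9 with the vehicle. It too was higher in each agonist library, and it was not called without the second control library.

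Few genes of the amino acid response driven by ATF4 changed in all 4 pairs. Of 35 tested targets, 4 were higher in all 4 pairs and 2 were lower, close to the background of 8.27% and 6.02%. The 4 were SLC7A11, SLC3A2, WARS1 and ALDH1L2, and of the 2 falls STC2 was lost without either control library, the first PPT library or either DPN library. ALDH1L2, a mitochondrial enzyme of folate metabolism and a shared rise, had 84.3 and 79.2 CPM with PPT, 49.8 and 47.6 with DPN, 7.07 and 6.78 with E2 and 16.8 and 14.4 with the vehicle. WARS1, a tryptophan tRNA synthetase, had 425 and 454 CPM with PPT, 271 and 287 with DPN, 64.7 and 59.3 with E2 and 130.1 and 119 with the vehicle. The agonist libraries of both genes were the highest and the E2 libraries the lowest, and PPT was above DPN, with DPN minus PPT at -0.75 (-0.93 to -0.56) and -0.66 (-0.80 to -0.52, log2 with 95% intervals). The median log2 difference of the list was 1.35 for PPT and 0.72 for DPN over E2, 0.29 for PPT and -0.16 for DPN over the vehicle, and -1.08 for E2 over the vehicle. ATF4, DDIT3, TRIB3 and ASNS were among the 29 members that did not change in all 4 pairs.

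Lysosomal genes and genes of cholesterol synthesis were raised in part. Of 29 lysosome and autophagy genes, 11 were higher in all 4 pairs and 0 lower (37.9% and 0%, against 8.27% and 6.02% of all tested genes, with a median pooled log2 difference of 0.28). Of 25 genes of cholesterol synthesis and uptake, 8 were higher (32%) and 0 lower (median 0.42). Over the vehicle, the median log2 difference of the cholesterol list was 0.63 with PPT and 0.19 with DPN. SQSTM1, an autophagy receptor, had 1753 and 1671 CPM with PPT, 1579 and 1647 with DPN, 499.9 and 476 with E2 and 641 and 663 with the vehicle. LAMP3, a lysosome-associated membrane protein and a shared rise, had 20.7 and 19.1 CPM with PPT, 12.3 and 12.6 with DPN, 0.671 and 0.421 with E2 and 2.03 and 1.97 with the vehicle. The agonists stood above both other groups in each gene, while LAMP3 was lower with E2 than with the vehicle by -1.87 (log2, adjusted p = 4.31e-06). Among the cholesterol genes, MSMO1, a sterol demethylation enzyme, had 430.2 and 426 CPM with PPT, 475 and 449 with DPN, 218 and 228 with E2 and 213 and 202 with the vehicle. Its agonist libraries lay above the others, and its smallest difference was 0.94 for PPT over E2 (log2, standard error 0.06, adjusted p = 1.28e-12), under the fold of the strict rule. SREBF2 did not change in all 4 pairs.

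**Figure D2:**
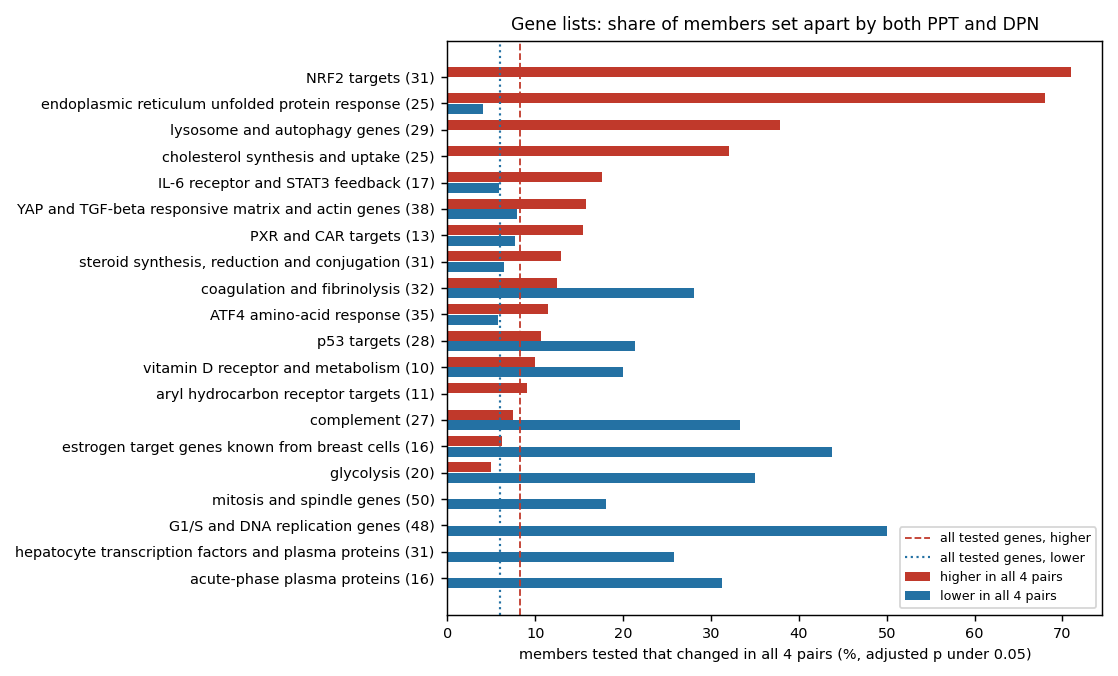
For 20 of the gene lists, each with at least 10 tested members (number in brackets; the cell type markers are not drawn), the red bar is the percentage of members higher in all 4 pairs and the blue bar the percentage lower, at adjusted p under 0.05. The dashed red line is the share of all tested genes that was higher (8.27%) and the dotted blue line the share that was lower (6.02%). NRF2 targets (71%) and the ER unfolded protein response (68%) stand farthest above the red line, and of the lists drawn G1/S and DNA replication genes (50%) are farthest above the blue line.

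The largest shared rises with at least 5 CPM on the higher side were of mixed function. ATP6V0D2, a subunit of the proton pump of acid compartments, had 4.36 and 3.25 CPM with PPT, 7.97 and 7.56 with DPN, 0.403 and 0.253 with E2 and 0.258 and 0.102 with the vehicle. OSCAR, a receptor of the immunoglobulin type that osteoclasts use, had 21.6 and 21.1 CPM with PPT, 12.8 and 14.4 with DPN, 1.25 and 1.18 with E2 and 1.29 and 0.644 with the vehicle. SEL1L3 had 14.4 and 16.8 CPM with PPT, 29.1 and 28.4 with DPN, 1.03 and 0.758 with E2 and 1.71 and 1.86 with the vehicle. All agonist libraries exceeded all others, with smallest differences of 3.52 for PPT over E2 (log2, standard error 0.37, adjusted p = 7.82e-09), 3.48 for DPN over E2 (log2, standard error 0.21, adjusted p = 1.4e-13) and 3.13 for PPT over the vehicle (log2, standard error 0.17, adjusted p = 6.15e-15). MEI1, which acts in meiotic recombination, had 14.5 and 14.7 CPM with PPT, 16 and 17.1 with DPN, 1.74 and 1.73 with E2 and 1 and 1.29 with the vehicle. SFN, the 14-3-3σ protein that holds cells at a cycle checkpoint, had 22.9 and 21.1 CPM with PPT, 21.7 and 22.3 with DPN, 2.01 and 1.94 with E2 and 2.87 and 2.95 with the vehicle. CDKN2B, an inhibitor of the cyclin D kinases (p15), had 21.2 and 24.6 CPM with PPT, 28.4 and 29.9 with DPN, 2.73 and 2.4 with E2 and 3.68 and 3.52 with the vehicle. These 3 genes too were separated without overlap, with smallest differences of 3.07 for PPT over E2 (log2, standard error 0.18, adjusted p = 8.37e-14), 2.92 for PPT over the vehicle (log2, standard error 0.14, adjusted p = 1.43e-15) and 2.67 for PPT over the vehicle (log2, standard error 0.14, adjusted p = 4.45e-15).

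CYP24A1, the enzyme that breaks down the vitamin D hormone, had 16.6 and 18.7 CPM with PPT, 14.6 and 17.7 with DPN, 2.95 and 1.9 with E2 and 2.03 and 1.42 with the vehicle. Its DPN and PPT libraries overlapped, and E2 and the vehicle did not pass the test against each other (adjusted p = 0.11). It was 1 of 10 tested genes of vitamin D signalling to be higher in all 4 pairs (10%, near the 8.27% of all tested genes). Of the 10, 2 were lower (20%, against 6.02%), and of these RXRA was lost without the second control or the first DPN library. GPAT3, an acyltransferase that starts triglyceride synthesis, had 158 and 135 CPM with PPT, 178 and 189 with DPN, 24.5 and 26.8 with E2 and 21 and 21.9 with the vehicle. It was the most abundant of the 14 largest rises, and the smallest difference was 2.51 for PPT over E2 (log2, standard error 0.09, adjusted p = 6.61e-19). C5AR1, the receptor for complement fragment C5a, had 11.3 and 11.2 CPM with PPT, 5.58 and 6.77 with DPN, 0.179 and 0.126 with E2 and 0.839 and 1.36 with the vehicle. NIBAN1, a stress-induced regulator of translation, had 5.83 and 5.29 CPM with PPT, 7.28 and 8.18 with DPN, 0.0447 and 0.126 with E2 and 0.742 and 1.08 with the vehicle. DYNC2H1, the heavy chain of the dynein of cilia, had 29.7 and 30.7 CPM with PPT, 25.9 and 21.2 with DPN, 0.894 and 1.64 with E2 and 4.19 and 4.24 with the vehicle. In C5AR1, NIBAN1 and DYNC2H1 the vehicle lay between the agonists and E2, which was below it by -2.81, -3.33 and -1.72 (log2, adjusted p = 1.73e-05, 1.69e-05 and 3.63e-07). SLFN5, of the Schlafen family, and VGF, a precursor of secreted peptides, completed the 14, at 21.1 to 26.4 CPM with the agonists against 2.42 to 3.39 in the other libraries for SLFN5, and 8.62 to 11.5 against 0.779 to 1.47 CPM for VGF.

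**Figure D3:**
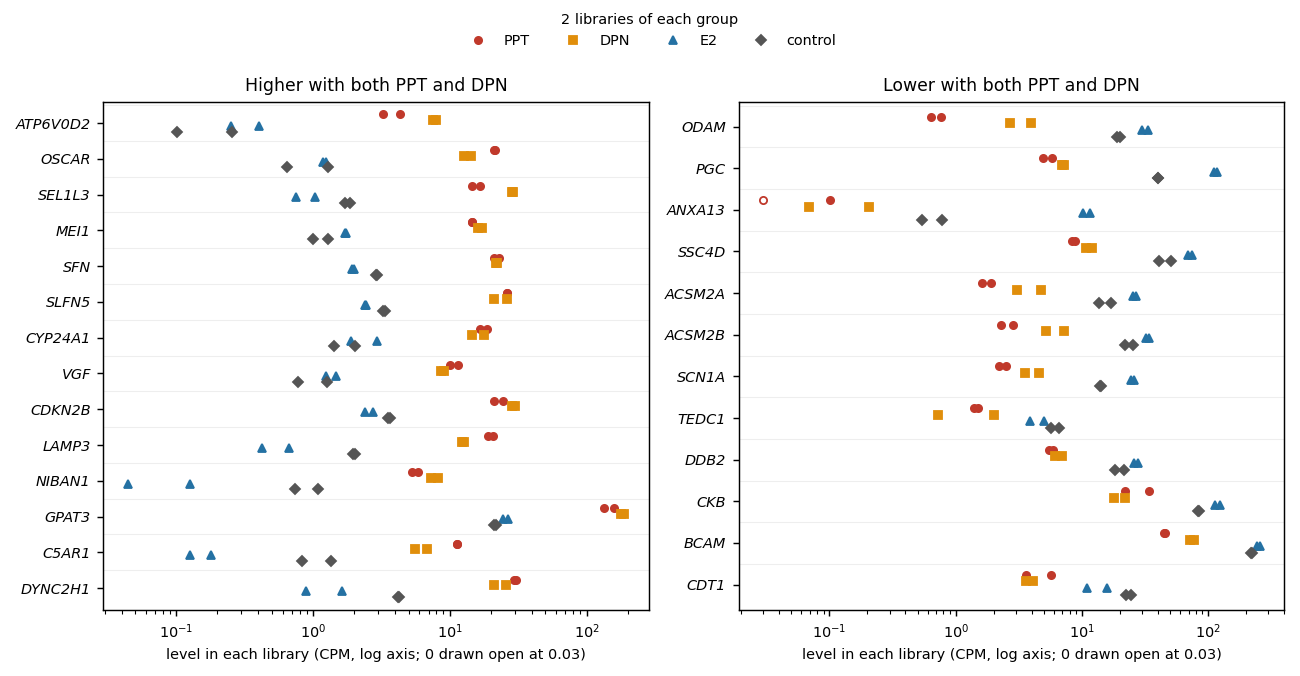
Each point is the CPM of 1 library on a log axis, for the 14 largest shared rises (left) and the 12 shared falls with at least 5 CPM on the higher side (right). In every gene the 4 PPT and DPN points lie on 1 side of all E2 and control points, which the rule that picked the genes all but fixes. An open point marks a library with 0 counts.

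IL6R, a receptor subunit for an inflammatory interleukin, was a shared rise and belongs to the genes also chosen for qPCR. IL6R (GeneID 3570, chromosome 1 from 154405343 to 154469450 of GRCh38) had 98.8 and 107 CPM with PPT, 125 and 131 with DPN, 27.7 and 29.6 with E2 and 20.6 and 22.6 with the vehicle. The agonist libraries lay above the others, E2 lay slightly above the vehicle, and the smallest difference was 1.84 for PPT over E2 (log2, standard error 0.08, adjusted p = 1.94e-16). Of 17 tested genes of the IL-6 and STAT3 pathway 3 were higher (17.6%, against 8.27% of all tested genes) and 1 lower (5.88%, near the background of 6.02%). JAK2 and SOCS2 were also higher in all 4 pairs (JAK2 not without the first E2 or the second PPT library, SOCS2 not without the second control library), and STAT3 itself, the transcription factor of the pathway, was lower, with 192 and 195 CPM with PPT, 231 and 242 with DPN, 272 and 275 with E2 and 270.2 and 264 with the vehicle. The call for STAT3 was lost without the first control library, without the first DPN library and with scaling by library size alone. The other qPCR genes were not shared. PPARG, a nuclear receptor of fat cells, had 15.9 and 16.1 CPM with PPT, 17.6 and 19.1 with DPN, 50.3 and 44.7 with E2 and 8.45 and 8.44 with the vehicle, so the agonists lay between E2 and the vehicle. SOCS3, a feedback inhibitor of cytokine signalling, had 1.17 and 2.68 CPM with PPT, 6.82 and 5.98 with DPN, 4.96 and 5.6 with E2 and 0.935 and 1.63 with the vehicle, and PPT did not pass the test against the vehicle (adjusted p = 0.13). ACTB, the qPCR reference gene, had 1655 and 1759 CPM with PPT, 1729 and 1645 with DPN, 2090 and 1904 with E2 and 1548 and 1568 with the vehicle.

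Of 38 tested genes of actin and matrix that respond to YAP or TGF-β, 6 were higher in all 4 pairs (15.8%, against 8.27% of all tested genes) and 3 were lower (7.89%, against 6.02%), and the median pooled log2 difference was -0.06. PALLD, an actin crosslinker and a shared rise, had 40.1 and 40.04 CPM with PPT, 76.3 and 72.5 with DPN, 8.68 and 10.8 with E2 and 6.48 and 6.64 with the vehicle. TAGLN, a smooth muscle actin-binding protein and a shared rise, had 25.1 and 27.7 CPM with PPT, 53.8 and 59 with DPN, 6.62 and 8.67 with E2 and 7.38 and 5.79 with the vehicle. TIMP1, an inhibitor of matrix proteases, had 23.4 and 22.7 CPM with PPT, 75.4 and 68.5 with DPN, 12.2 and 10.7 with E2 and 8.42 and 7.59 with the vehicle. In each of them both agonists exceeded both other groups and DPN exceeded PPT, with DPN minus PPT at 0.89 (0.70 to 1.09), 1.09 (0.86 to 1.33) and 1.64 (1.44 to 1.85, log2 with 95% intervals). ACTA2, a marker of stellate cells and fibroblasts, was among the 3 falls. The 8 stellate and fibroblast markers summed to 14.2 to 19.6 CPM with the agonists, 51.5 to 52.4 with E2 and 33.2 to 33.4 with the vehicle. In every library 6 of the 8 had under 10 counts, with THY1 at 0, so these sums too rest on few genes.

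Of 31 tested genes of steroid synthesis, reduction and conjugation, 4 were higher in all 4 pairs (AKR1C1, AKR1C2, AKR1C3 and AKR1C4) and 2 were lower. These shares, 12.9% and 6.45%, are near the 8.27% and 6.02% of all tested genes. AKR1C3, which also reduces estrone and androgens, had 692 and 790.0 CPM with PPT, 609 and 602 with DPN, 329 and 315 with E2 and 350.1 and 333 with the vehicle. AKR1C1, which inactivates progesterone, had 1083 and 1276 CPM with PPT, 600.5 and 587 with DPN, 514 and 486 with E2 and 149 and 141 with the vehicle. AKR1C1 was also higher with E2 than with the vehicle, and DPN exceeded E2 by only 0.25 (log2, adjusted p = 0.0038). The AKR1C genes are near copies, and AKR1C1 and AKR1C2 share much of their sequence, so their levels are uncertain. SULT2A1, a sulfotransferase of steroids and bile acids, was lower, with 93.5 and 85.8 CPM with PPT, 72.3 and 75.8 with DPN, 216 and 218 with E2 and 145 and 137 with the vehicle. NQO1 was the only 1 of 11 tested targets of the aryl hydrocarbon receptor to be higher in all 4 pairs (9.09%, near background), and CYP1A1 was not. Of 13 tested targets of PXR and CAR, ABCB1 and ABCC2 were higher (15.4%), SULT2A1 was lower (7.69%), and CYP3A4 did not change in all 4 pairs.

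Genes known as estrogen targets in breast cells were lower in part with both agonists. Of 16 tested, 7 were lower in all 4 pairs (43.8%, against 6.02% of all tested genes) and 1 was higher (6.25%, against 8.27%). The median pooled log2 difference was -0.67. Under the alternative runs the 7 became as few as 5. STC2, described above as lost without several single libraries, was among the 7. Over the vehicle, the list's median log2 difference was -0.54 with PPT, -0.14 with DPN and 0.78 with E2. GREB1, a coactivator of ERα, had 65.6 and 65 CPM with PPT, 65.1 and 68.1 with DPN, 203 and 197 with E2 and 112 and 114 with the vehicle. CCND1, cyclin D1, had 75.4 and 71.1 CPM with PPT, 82.5 and 84.5 with DPN, 189.9 and 196 with E2 and 114 and 117 with the vehicle. In both genes the agonists lay below the vehicle and E2 above it, with the vehicle differences at -0.79 and -0.76 for GREB1 and -0.66 and -0.47 for CCND1 (log2, PPT then DPN). PDZK1, a scaffold of membrane transporters, had 4.65 and 4.05 CPM with PPT, 7.34 and 9.86 with DPN, 14.6 and 14.4 with E2 and 28.1 and 33.3 with the vehicle, and here E2 lay below the vehicle too. TFF1 and EGR3 did not change in all 4 pairs.

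Among the shared falls with at least 5 CPM on the higher side, the largest was that of ODAM, a protein secreted by the cells that mature tooth enamel. ODAM (GeneID 54959) had 0.77 and 0.636 CPM with PPT, 2.7 and 3.98 with DPN, 30.1 and 33.1 with E2 and 19.1 and 19.9 with the vehicle. PGC, the precursor of the stomach protease gastricsin, had 5.83 and 4.95 CPM with PPT, 7.17 and 6.91 with DPN, 117 and 111 with E2 and 40.2 and 39.9 with the vehicle. SSC4D, a soluble scavenger receptor, had 8.36 and 8.87 CPM with PPT, 10.8 and 12.1 with DPN, 74.7 and 68.8 with E2 and 40.6 and 51.3 with the vehicle. All agonist libraries lay below all others, with differences closest to 0 of -2.54 for DPN over the vehicle (log2, standard error 0.16, adjusted p = 1.35e-13), -2.51 for DPN over the vehicle (log2, standard error 0.10, adjusted p = 3.52e-17) and -2.01 for DPN over the vehicle (log2, standard error 0.11, adjusted p = 2.83e-14). ACSM2A and ACSM2B encode mitochondrial enzymes that activate medium-chain fatty acids. ACSM2A had 1.91 and 1.61 CPM with PPT, 3.08 and 4.78 with DPN, 25.5 and 26.7 with E2 and 16.9 and 13.7 with the vehicle. ACSM2B had 2.27 and 2.85 CPM with PPT, 5.2 and 7.18 with DPN, 32.4 and 34.1 with E2 and 25.3 and 21.8 with the vehicle. Both pairs of agonist libraries were lower without overlap, but the genes are near copies 48557 bp apart and cannot be counted as separate. SCN1A, a sodium channel subunit, had 2.49 and 2.21 CPM with PPT, 3.57 and 4.6 with DPN, 24.5 and 25.9 with E2 and 14 and 14.2 with the vehicle, and it overlaps LOC102724058, another shared fall.

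BCAM, a laminin receptor, was the most abundant shared fall and had 45.1 and 45.7 CPM with PPT, 71.9 and 77.9 with DPN, 256 and 244 with E2 and 217 and 224 with the vehicle. CKB, the brain-type creatine kinase, had 34 and 22 CPM with PPT, 22.1 and 18.1 with DPN, 125 and 113 with E2 and 83.2 and 85 with the vehicle. DDB2, which finds ultraviolet damage in DNA, had 5.5 and 5.96 CPM with PPT, 7 and 6.08 with DPN, 27.8 and 25.9 with E2 and 21.5 and 18.2 with the vehicle. The agonist libraries did not overlap the others, and the differences closest to 0 were -1.56 for DPN over the vehicle (log2, standard error 0.07, adjusted p = 1.41e-16), -1.59 for PPT over the vehicle (log2, standard error 0.12, adjusted p = 1.43e-11) and -1.60 for DPN over the vehicle (log2, standard error 0.13, adjusted p = 7.82e-11). The call for DDB2 was lost without the first control library, and that for CKB without the second PPT library. ANXA13, an annexin of gut epithelium, had 0 and 0.1 CPM with PPT, 0.0693 and 0.206 with DPN, 10.2 and 11.5 with E2 and 0.774 and 0.542 with the vehicle, and E2 stood far above the vehicle. ANXA13 was not called without the first control library or without the first DPN library. TEDC1, of a tubulin complex at centrioles, had 1.5 and 1.41 CPM with PPT, 2.01 and 0.721 with DPN, 5.01 and 3.92 with E2 and 5.74 and 6.54 with the vehicle, and its call was lost without the first E2 or the second DPN library and with library-size scaling. GLP2R, a receptor for a gut peptide hormone, had 0 counts in both PPT libraries, 0.243 and 0.275 CPM with DPN, 7.83 and 7.50 with E2 and 1.55 and 1.29 with the vehicle. With a floor of 3 counts over the PPT libraries, it was at least 27-fold lower with PPT than with the vehicle and at least 146-fold lower than with E2.

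Genes of DNA replication were often lower with both agonists. Of 48 tested G1/S and DNA replication genes, 24 were lower in all 4 pairs (50%, against 6.02% of all tested genes) and 0 were higher, with a median pooled log2 difference of -0.86. Over the vehicle, the list's median log2 difference was -1.2 with PPT, -1.35 with DPN and -0.865 with E2, so it was lower with E2 too. CDT1, which licenses replication origins, was the list's shared fall and had 3.63 and 5.72 CPM with PPT, 3.6 and 4.12 with DPN, 15.9 and 11.1 with E2 and 22.4 and 24.7 with the vehicle. MCM2, of the replicative helicase, had 24 and 24.1 CPM with PPT, 18.9 and 19.6 with DPN, 53.4 and 50.2 with E2 and 79.1 and 85.8 with the vehicle. UHRF1, which carries DNA methylation through replication, had 8.32 and 9.61 CPM with PPT, 8.24 and 8.42 with DPN, 23.8 and 21 with E2 and 46.6 and 51.4 with the vehicle. TYMS, the enzyme that makes thymidylate, had 33.8 and 34.5 CPM with PPT, 37 and 36.3 with DPN, 67.7 and 69.7 with E2 and 102 and 96.5 with the vehicle. In these genes E2 lay between the agonists and the vehicle. CDT1 had the smallest difference of the shared falls, -1.52 for PPT over E2 (log2, standard error 0.19, adjusted p = 9.1e-08), and was no longer called without the first E2 library, without the first PPT library, with library-size scaling or with no filter on low counts.

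By its median, a list of mitotic genes was low with all 3 compounds. Of 50 tested mitosis and spindle genes, 9 were lower in all 4 pairs and 0 were higher (18% and 0%, against 6.02% and 8.27% of all tested genes). The median log2 difference of this list from the vehicle was -1.82 with PPT, -2.31 with DPN and -1.88 with E2, and from E2 it was 0.04 with PPT and -0.46 with DPN. TOP2A, a topoisomerase of dividing cells, had 101 and 114 CPM with PPT, 81.9 and 81.5 with DPN, 143 and 153 with E2 and 574 and 547 with the vehicle. CENPF, a kinetochore protein, had 28.3 and 25.9 CPM with PPT, 10.9 and 11.4 with DPN, 33.2 and 38.8 with E2 and 83.6 and 82.4 with the vehicle, and with library-size scaling its call was lost. Among 28 tested p53 targets, 3 were higher (10.7%, near the 8.27% of all tested genes) and 6 lower (21.4%, against 6.02%) in all 4 pairs. MDM2, the inhibitor of p53, had 472 and 539 CPM with PPT, 424 and 404 with DPN, 272 and 298 with E2 and 254 and 265 with the vehicle, and CDKN1A, the cycle inhibitor p21, had 116 and 107 CPM with PPT, 129.9 and 135 with DPN, 79.5 and 75.3 with E2 and 82.6 and 85.4 with the vehicle. Both were higher with the agonists, while DDB2 and XPC, a pair of DNA repair genes, were lower.

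Genes of plasma proteins were lower in part. In all 4 pairs, 9 of 27 tested complement genes were lower and 2 higher, 9 of 32 coagulation genes lower and 4 higher, 5 of 16 acute-phase genes lower and 0 higher, and 8 of 31 hepatocyte transcription factors and plasma proteins lower and 0 higher. The lower shares were 33.3%, 28.1%, 31.2% and 25.8% in that order, against 6.02% of all tested genes, and the higher shares 7.41%, 12.5%, 0% and 0%, against 8.27%. Over the vehicle, the median log2 difference of the complement list was -0.435 with PPT, -0.0898 with DPN and 0.543 with E2. In the same order it was -0.681, -0.105 and 0.181 for coagulation, and -0.978, -0.22 and 1.7 for acute-phase genes. For hepatocyte transcription factors and plasma proteins it was -0.263, -0.419 and -0.038. The sums of the hepatocyte markers given above moved the same way, and their part in these counts was not tested. SERPINA1, AFP, HNF4A and ALB, named below, are themselves among those markers, so the sums are not separate support. C3, the central complement protein, had 2161 and 2153 CPM with PPT, 2124 and 2228 with DPN, 12100 and 11360 with E2 and 2863 and 2969 with the vehicle. SERPINA1, the antitrypsin of plasma, had 3068 and 2913 CPM with PPT, 4245 and 3897 with DPN, 15540 and 13400 with E2 and 6375 and 6432 with the vehicle. AFP, the fetal plasma protein of hepatoma cells, had 5648 and 6375 CPM with PPT, 6590 and 6414 with DPN, 10620 and 10730 with E2 and 16060 and 15360 with the vehicle. C3 and SERPINA1 were highest with E2, whereas AFP was highest with the vehicle, and the agonists were lowest in all 3. HNF4A and ALB, the master regulator of hepatocyte genes and albumin, did not change in all 4 pairs. F2RL1, a receptor cleaved by proteases of coagulation (PAR2), was a shared rise within the coagulation list and had 271 and 283 CPM with PPT, 365 and 365 with DPN, 80.4 and 80.5 with E2 and 96.9 and 91.4 with the vehicle. Of 20 glycolysis genes, 7 were lower (35%) and PFKP was higher (5%), and the 7 were 4 without the first control library. LDHA, lactate dehydrogenase A, had 835 and 818 CPM with PPT, 1238 and 1280 with DPN, 2747 and 2608 with E2 and 1429 and 1425 with the vehicle, and the small DPN difference from the vehicle (-0.18, adjusted p = 0.01) was lost without that library.

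PPT and DPN were then compared with each other in the genes they shared. Of the 72 shared rises, 32 differed between DPN and PPT at an adjusted p under 0.05 (15 higher with DPN and 17 lower), and of the 22 shared falls 9 differed (8 higher with DPN and 1 lower). That is 44.4% and 40.9%, close to the 40.3% of all tested genes that differed between them. The median size of the difference was 0.30 for the rises and 0.44 for the falls on the log2 scale. The 95% interval lay within 0.5 of 0 for 18 rises and within 1 for 47, and for the falls within 0.5 for 1 and within 1 for 7. TXNRD1 had an interval of -0.13 to 0.12, SFN -0.24 to 0.24 and DNAJC10 -0.17 to 0.09, so any difference in these genes was small. For the genes with wider intervals, missing the threshold does not show that the agonists act alike.

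The largest differences went to DPN. ITGAX, an integrin of myeloid cells, had 2.75 and 2.95 CPM with PPT, 9.11 and 7.7 with DPN, 0.716 and 0.884 with E2 and 0.935 and 0.61 with the vehicle. It was higher with DPN than with PPT by 1.56 (1.08 to 2.04, adjusted p = 2.7e-06). TUSC3, a subunit of the enzyme that glycosylates proteins in the ER, had 7.77 and 7.9 CPM with PPT, 18.9 and 16.6 with DPN, 0.894 and 0.21 with E2 and 2.94 and 2.54 with the vehicle, a difference of 1.18 (0.80 to 1.55). It was the shared rise closest to the fold minimum, at 1.51 for PPT over the vehicle, and was lost without the second control library and with upper-quartile scaling. Among low genes, TMEM71 had 1.32 and 0.536 CPM with PPT, 2.77 and 3.5 with DPN, 0 and 0 with E2 and 0.0645 and 0.0339 with the vehicle. LILRA2, a leukocyte receptor, had 1.03 and 1.47 CPM with PPT, 3.29 and 3.71 with DPN, 0 and 0.21 with E2 and 0.226 and 0.407 with the vehicle, and LINC01239, a noncoding RNA, had 0.33 and 0.803 CPM with PPT, 2.15 and 2.2 with DPN, 0.0894 and 0.0842 with E2 and 0.129 and 0.102 with the vehicle. The DPN libraries lay above the PPT libraries in each of these 3 genes. LILRA2 was not a shared rise without the first control or the second PPT library, and LINC01239 not without any 1 of 7 libraries. Against the floor of E2, which had 0 counts of TMEM71, the gene was at least 14.3-fold higher with PPT and at least 48.2-fold higher with DPN. The 7 leukocyte markers summed to 561 to 1140 CPM with the agonists, 1530 to 1550 with E2 and 1190 to 1220 with the vehicle. In every library 5 of the 7 had under 10 counts, with MS4A1 at 0, so these sums rest on few genes and not on the set. ODAM, ACSM2B, ACSM2A and SCN1A fell less with DPN, by 2.25 (1.74 to 2.76), 1.27 (0.90 to 1.64), 1.16 (0.71 to 1.62) and 0.80 (0.42 to 1.18) for DPN minus PPT. In the other direction, C5AR1 was lower with DPN than with PPT by -0.87 (-1.26 to -0.47), AKR1B15 by -0.76 (-0.96 to -0.55) and ALDH1L2 by -0.75 (-0.93 to -0.56).

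**Figure D4:**
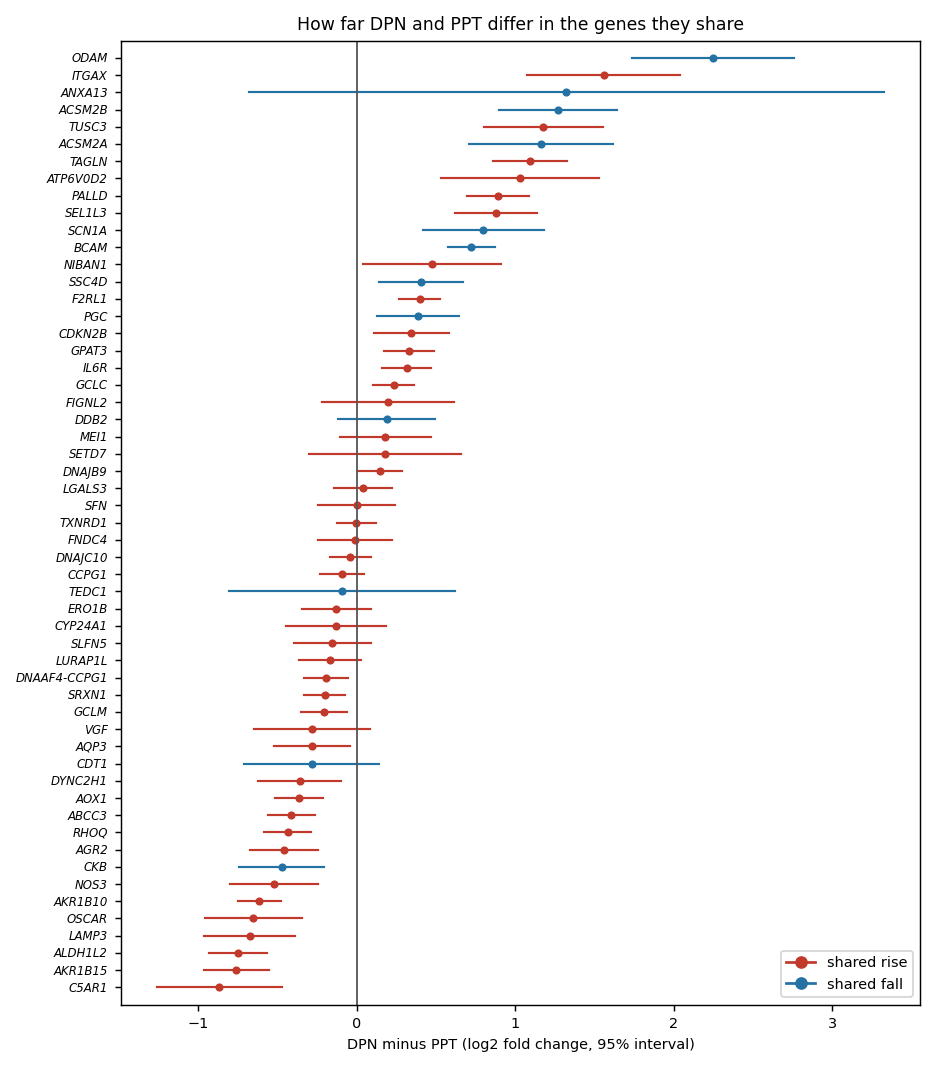
Each point is the log2 fold change of DPN over PPT with its 95% interval, for the 43 shared rises (red) and 12 shared falls (blue) with at least 5 CPM on the higher side. ODAM (2.25) and ITGAX (1.56) are at the top and C5AR1 (-0.87) at the bottom, while the intervals of TXNRD1, SFN and LGALS3 span 0 closely.

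E2 itself often stood on the far side of the vehicle in the shared falls, and less often in the shared rises. In the 72 shared rises, E2 was lower than the vehicle in 28, higher in 7 and not past the test in 37. Of all tested genes 31.2% were lower and 30.2% higher with E2, so the share of rises lower with E2 was not far above background. In the 22 shared falls, E2 was higher in 16, lower in 1 and not past the test in 5. The 16 became 9 without the second control library and 10 with library-size scaling. These comparisons use the libraries that also entered the 4 pairs, so they describe the shared genes and are not separate evidence. The same order of agonists, vehicle and E2 was seen in TXNRD1, AKR1B10, SRXN1 and LAMP3 among the rises and, with E2 at the top, in PGC and SCN1A among the falls.

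Members near the thresholds and at low levels need more care. On the rise side, TUSC3 (1.51), DNAJC10 (1.52) and STARD5 (1.53) were just inside the fold minimum and ERICH2 (1.49), S100A11 (1.48) and GPR143 (1.47) just outside it, as the smallest of the 4 log2 differences. On the fall side, CDT1 (-1.52), PDE3A (-1.56) and BCAM (-1.56) were just inside and ACY3 (-1.499), HPX (-1.498) and CTSV (-1.48) just outside. In 43 rises and 12 falls the higher side averaged at least 5 CPM, and the median of the smallest difference was 2.07 and 1.86 in size. The rest were low, and MAP2 was lost with each left-out library, STARD5 with 7 of the 8 and PDE3A without the second control or the second DPN library. TMEM71, TMEM92, MAP2 and PNMA6A had 0 counts in both E2 libraries, and PNMA6A had 84 counts with PPT over its libraries, 114 with DPN and 8 with the vehicle. ATG9B overlaps NOS3, TM4SF19 overlaps TM4SF19-DYNLT2B and SSC4D overlaps ZP3, each a pair of shared genes whose reads may not be separate. NOS3, the endothelial nitric oxide synthase, had 18.3 and 19.1 CPM with PPT, 13.9 and 12.3 with DPN, 1.97 and 2.23 with E2 and 3.58 and 3.83 with the vehicle. It was lowest with E2, and the agonist libraries stood above all others.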

How the data were processed

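RNA-Seq was measured in 8 libraries of HepG2 cells. The authors read poly(A) RNA as single-end reads of 50 bp and deposited raw counts per gene on GRCh38.p10, and those counts were used unchanged. The aligner and counter are not given in the sources used here, and DESeq2 is named in the submitters' processing notes. Genes passing filterByExpr (minimum count 10, minimum total 15) were fitted in edgeR 4.0.16 (R 4.3.3) with TMM scaling and the quasi-likelihood test. P-values were adjusted by Benjamini and Hochberg over all tested genes and 6 pairs, and separately for the pooled contrast. Intervals are 95%, and floors of 3 counts cover counting error only. RefSeq symbols matched 99.4% of genes. The steps were tested on simulated data. The compounds, gene lists and rules were chosen with earlier results of these data known. Named genes are the shared rises (up to 14) and shared falls (up to 14) with the largest smallest-of-4 difference and at least 5 CPM on the higher side, leaving out genes whose counts equal another gene's, up to 4 members with the smallest pooled p of each described list, the receptors, the qPCR genes, and the 5 shared rises and 5 shared falls with the largest DPN minus PPT at an adjusted p under 0.01. Other shared genes and list members were named after their values were seen. Of 37 lists, those described were chosen after their values were seen, as were the alternatives for list counts, for genes changed with no fold minimum, and for DPN minus PPT and E2 minus control in the shared genes. The alternatives were DESeq2 1.42.0, RLE, upper-quartile and library-size scaling, other filters and thresholds, a 2-side fit, a replicate block, adjustment within each contrast and leaving out each library. Some genes that these rules name are not reported here.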

Additional observations from a re-analysis of the deposited data

Results flagged for a closer look

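In 5 shared genes the effects of DPN and PPT differed by a direct test past the fold of 1.5 and an adjusted p under 0.01 with edgeR's quasi-likelihood test. The log2 difference of DPN minus PPT was 1.766 for TMEM71 and 1.917 for LINC01239, both low genes, 1.559 for ITGAX and 2.249 for ODAM. GLP2R had 0 counts in both PPT libraries, and was at least 4.93-fold higher with DPN than with PPT against a floor of 3 counts over the PPT libraries. In each gene both DPN libraries lay above both PPT libraries.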

How the results depend on the processing

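No named gene that had passed its rule in the main fit changed direction under any alternative run, but 2 libraries per group limit the precision. For named genes that had not passed, a change of sign was not counted. With an adjusted p under 0.05 and no fold minimum there were 1279 shared rises and 931 shared falls, and 4617 and 4697 in the pooled contrast. With a log2 fold change above 1 there were 160 and 95 shared, and 572 and 1045 pooled. A fit of only 2 sides, with PPT and DPN as replicates of one another, called 87 pooled rises and 57 pooled falls, among them 59 of the 72 shared rises and 17 of the 22 shared falls. At that fold and an unadjusted p under 0.05 it had 233 and 677. DESeq2 gave 66 rises and 20 falls, of which 65 and 20 were the same genes. RLE scaling gave 72 and 22, upper-quartile scaling 68 and 25, leaving low counts in 74 and 22, a floor of 1 CPM in 2 libraries 72 and 24, and adjustment within each contrast 72 and 21. With library size alone there were 81 and 20, the median difference over all genes moved to 0.22 for PPT over E2 and 0.16 for DPN over E2, against 0.01 and -0.03 with TMM, and rises made up 43.2% of the pooled calls, against 35.1%. Leaving out 1 library at a time gave 64 to 73 rises and 18 to 25 falls, and 9 to 14 of the 94 shared genes were lost. LINC01239 was lost with DESeq2, the replicate block and 7 of the 8 left-out libraries. A block for replicate number gave 69 rises and 20 falls and lost 5 genes (AMZ1, MAP2, LINC01239, SMTNL2 and YJEFN3). Deviations of same-numbered libraries correlated at -0.12 to 0.03 over the tested genes. The labels do not say what a shared number means, and with 2 libraries per group these correlations cannot exclude a batch. Of the values for single genes, 1627 kept their call, 49 lost it and 4 gained it. A gene that had not passed in the main fit and changed sign is included in the 1627.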
